A study of Mus musculus with 2 samples.

Results

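The genes described here are the secreted and membrane-bound proteases that cut the extracellular matrix, with the inhibitors that hold them in check. They were taken by symbol alone, as every gene of the count tables named Mmp, Adamts or Timp followed by a number and, in some cases, a letter. This gave 45 genes, 22 Mmp, 19 Adamts and 4 Timp, among 32285 genes in the tables. Their unique molecular identifiers (UMIs, 1 for each captured RNA molecule) were read from single-cell RNA libraries of 2 mouse pancreatic tumours. Each tumour grew as an orthotopic allograft, in the pancreas, from KPC cells, a pancreatic cancer line that the study's methods derive from a mutant mouse model driven by Pdx-1-Cre. Pdx-1-Cre recombines in cells of the pancreatic lineage. The group KPC-shV received cells with a control hairpin and the group KPC-shZEB1 cells with a hairpin against Zeb1, both introduced by lentivirus and drug selection, and each group is 1 library. The study's methods give 4 to 6 weeks as the age of its mice, kept several selected lines for each stable cell without naming the one injected here, and name more than 1 mouse strain. The study's text says that the mice whose tumours went to single-cell sequencing received gemcitabine, in both groups, which the labels do not mention. The hairpin was carried by the injected cells alone, so fibroblasts, vessels and immune cells of the host mouse lack it. Which cells of a class came from the host was not tested.

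Matrix metalloproteinases (Mmp) are zinc proteases made as inactive precursors. Most are secreted, and others, Mmp14, Mmp15, Mmp16 and Mmp25 among them, sit on the cell surface. Together the Mmp proteases cut collagens, gelatins, elastin and many signalling proteins. Adamts proteases bind the matrix through thrombospondin repeats. Some trim procollagen to collagen (Adamts2, Adamts3, Adamts14) and others cut the proteoglycans versican and aggrecan (Adamts1, Adamts4, Adamts5, Adamts9, Adamts15). Tissue inhibitors of metalloproteinases (Timp) block the active site of the enzymes, and Timp3, which stays bound to the matrix, also blocks several Adamts enzymes. Pancreatic cancer is known for a dense, fibroblast-rich stroma in which these genes are active.

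Filters left 11394 cells (101167722 UMIs) labelled KPC-shV and 12113 cells (119196328 UMIs) labelled KPC-shZEB1, with medians of 3721 and 4254 UMIs per cell. Doublet removal had taken 319 and 334 cells, and 46 barcodes occurred in both libraries. The cells fell into 25 clusters, of which 19 were named by fixed markers in 9 classes written as X-like and 6 kept the name of their leading gene. The 2 groups also differed in mouse, tumour, dissociation and library, which cannot be told apart, and the values below describe 2 libraries. In tumour-like cells Zeb1 was not lower in the library labelled with the Zeb1 hairpin. It stood at 129 CPM in the KPC-shV-labelled library, CPM being the UMIs of a gene per 1000000 UMIs of the class. In the KPC-shZEB1-labelled library it stood at 152 CPM, a ratio of 1.18 (95% interval 1.12–1.24). In the unnamed Prg4 cluster Zeb1 stood at 218 and 269 CPM, with the KPC-shV-labelled library first. In the unnamed Ralyl cluster, with 9 and 231 cells, it stood at 265 and 226 CPM. Whether intronic reads entered the counts, which bears on the Zeb1 level, was not given in the sources used here, and no other value here checks the labels. Granulocyte-like cells made up 60.2% of kept cells in the KPC-shV-labelled library and 35.9% in the KPC-shZEB1-labelled library, and T and NK-like cells 3.74% and 11.5%. Traces of RNA from other cells also differed between the libraries. The 11 monocyte-macrophage markers summed to 340.3 CPM in B-like cells of the KPC-shV-labelled library and to 936 CPM in those of the KPC-shZEB1-labelled library. The 8 granulocyte markers went the other way, from 3145 to 1871 CPM in fibroblast-like cells. These marker levels bear on all low values below, and their part in them was not tested.

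All 45 genes carried an identifier of the GENCODE M21 annotation, and coordinates are on the mouse build GRCm38. The locus that holds most of the secreted Mmp genes was chosen for its sequences, because its neighbours were high in different cells. On chromosome 9, 9 of the Mmp genes taken here lie within 427 kb (chr9:7272514-7699585). Their order is Mmp13, Mmp12, Mmp1b, Mmp3, Mmp10, Mmp8, Mmp27, Mmp20 and Mmp7. The 150 bases before the start of 6 of them are printed, from RefSeq promoters on GRCm38.p6, plus strand, 5′ to 3′, each ending on the base before the earlier of the RefSeq and GENCODE starts. Capitals mark the letters TGAGTCA or their reverse complement TGACTCA, the recognition sequence of the transcription factor AP-1, and TATAAA, the TATA box.
Mmp13: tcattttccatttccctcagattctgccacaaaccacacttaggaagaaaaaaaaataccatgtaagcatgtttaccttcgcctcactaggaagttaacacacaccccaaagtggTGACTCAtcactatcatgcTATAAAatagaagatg
Mmp12: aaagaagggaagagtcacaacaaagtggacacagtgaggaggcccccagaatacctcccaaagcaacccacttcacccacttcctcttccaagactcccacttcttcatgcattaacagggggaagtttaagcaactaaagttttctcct
Mmp3: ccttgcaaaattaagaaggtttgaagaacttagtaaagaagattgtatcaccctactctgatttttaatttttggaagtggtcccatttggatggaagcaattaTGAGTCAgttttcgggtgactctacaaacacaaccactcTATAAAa
Mmp10: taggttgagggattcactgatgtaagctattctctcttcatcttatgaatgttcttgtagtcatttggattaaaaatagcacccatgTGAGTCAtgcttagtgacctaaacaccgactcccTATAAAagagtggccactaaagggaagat
Mmp8: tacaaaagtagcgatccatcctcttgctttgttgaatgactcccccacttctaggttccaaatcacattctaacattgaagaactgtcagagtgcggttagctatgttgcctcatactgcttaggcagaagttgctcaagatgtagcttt
Mmp7: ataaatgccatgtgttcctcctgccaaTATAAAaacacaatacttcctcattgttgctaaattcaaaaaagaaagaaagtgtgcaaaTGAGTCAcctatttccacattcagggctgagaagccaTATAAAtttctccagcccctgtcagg
These windows are chr9:7272364-7272513 for Mmp13, chr9:7344231-7344380 for Mmp12, chr9:7445672-7445821 for Mmp3, chr9:7502192-7502341 for Mmp10, chr9:7558279-7558428 for Mmp8 and chr9:7691940-7692089 for Mmp7. The AP-1 letters begin 35 bases before the end of the Mmp13 window, 46 before that of Mmp3 and 63 before those of Mmp10 and Mmp7. The TATA letters begin 16 bases before the end for Mmp13, 7 for Mmp3, 29 for Mmp10 and, at 2 places, 123 and 26 bases for Mmp7. The printed windows of Mmp12 and Mmp8 held neither set of letters. Of the 45 genes, 31 had a RefSeq promoter row. In the 150 bases before the RefSeq start, on both strands, AP-1 letters were in 5 of the 17 Mmp genes with a row, and all 5 (Mmp13, Mmp1b, Mmp3, Mmp10 and Mmp7) lie in this locus. Over 27025 genes the share was 2.80%. TATA letters were in 7 of the 17 Mmp genes and 8.08% of all genes. The letters CACCTG or CAGGTG, an E-box of the kind Zeb1 binds, were in 3 of the 31 genes and 10.5% of all. These are matches of letters and no measure of binding.

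Along this locus, levels over both libraries passed from cell type to cell type. Mmp13, an interstitial collagenase, and Mmp12, the macrophage elastase, were highest in monocyte-macrophage-like cells at 121 and 786 CPM. Mmp3 (stromelysin 1) was highest in fibroblast-like cells at 291 CPM. Mmp10 (stromelysin 2) reached 589.6 CPM in the Rgs5 cluster, through a single cell described below. Mmp8, the neutrophil collagenase, was highest in granulocyte-like cells at 56.2 CPM. Mmp7 (matrilysin) was highest in the Dcdc2a cluster at 768 CPM. Mmp1b, Mmp27 and Mmp20 held 24, 116 and 19 UMIs in all kept cells together and were at or near the detection limit throughout. Mmp12 and Mmp1b overlap on opposite strands, and whether counting used the strand was not given in the sources used here.

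**Figure D1:**
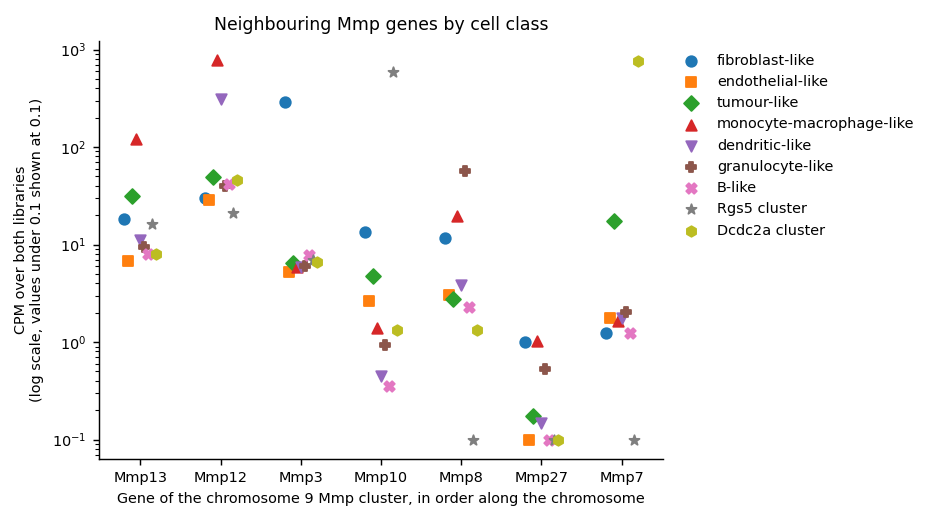
CPM over both libraries (y axis, log scale, values under 0.1 drawn at 0.1) of 7 neighbouring Mmp genes in the order they lie on the chromosome (x axis), with a symbol for each cell class or cluster. The highest symbol is the monocyte-macrophage-like class for Mmp13 and Mmp12, the fibroblast-like class for Mmp3, the Rgs5 cluster for Mmp10, the granulocyte-like class for Mmp8 and the Dcdc2a cluster for Mmp7.

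Each gene was next placed in the class where its CPM was highest. In all, 33 of the 45 genes had at least 100 UMIs in that class and were counted, and 19 of these were highest in fibroblast-like cells (9 Adamts, 7 Mmp and 3 Timp). Endothelial-like cells led for 5 genes (Adamts1, Adamts4, Adamts7, Adamts9 and Mmp15), monocyte-macrophage-like cells for 3 (Mmp12, Mmp13 and Mmp19) and granulocyte-like cells for 2 (Mmp8 and Mmp9). T and NK-like cells led for Adamts14, dendritic-like cells for Mmp25, plasmacytoid dendritic-like cells for Adamts6 and tumour-like cells for Mmp7. The remaining 12 genes (Adamts8, Adamts13, Adamts18, Adamts20, Mmp1b, Mmp17, Mmp20, Mmp21, Mmp24, Mmp27, Mmp28 and Timp4) had under 100 UMIs in their leading class, and 7 of the 45 had under 100 UMIs in all kept cells. UMIs of this chemistry mark the 3′ end of an RNA, so levels were not divided by gene length.

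**Figure D2:**
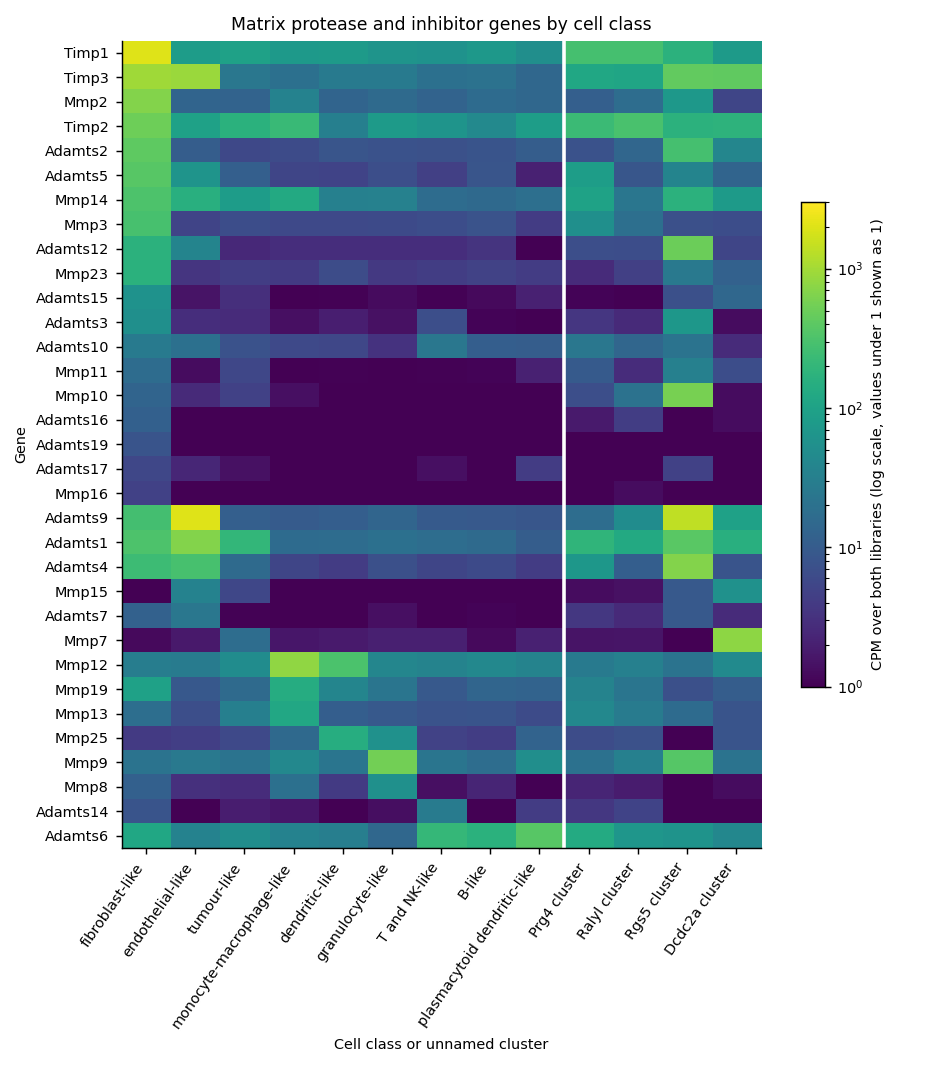
CPM over both libraries (colour, log scale, values under 1 drawn as 1) of the 33 counted genes (rows) in 9 cell classes and, right of the white line, 4 unnamed clusters (columns). Rows are grouped by leading class, and among the 9 classes the upper block of 19 rows is brightest in the fibroblast-like column, while right of the line Mmp10, Mmp11, Adamts3 and Adamts12 of that block are brighter in the Rgs5 cluster.

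Summed by family, the classes differed in which enzymes they carried. In fibroblast-like cells of the KPC-shV-labelled library the Mmp, Adamts and Timp genes summed to 1661, 2207 and 3579.9 CPM, and in the KPC-shZEB1-labelled library to 1690.1, 1985 and 3396 CPM. Inhibitors therefore made up 48.1% and 48.0% of these UMIs. In endothelial-like cells Adamts genes held the largest part, 71.8% and 65.3%. In monocyte-macrophage-like cells it was the Mmp genes, with 76.6% and 75.4%, and in granulocyte-like cells likewise, with 75.9% and 76.4%. Tumour-like cells had a more even mix, 285, 319.8 and 284 CPM in the KPC-shV-labelled library and 265, 308 and 292 CPM in the KPC-shZEB1-labelled library. Over all kept cells the 45 genes stood at 2004 and 1824 CPM.

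**Figure D3:**
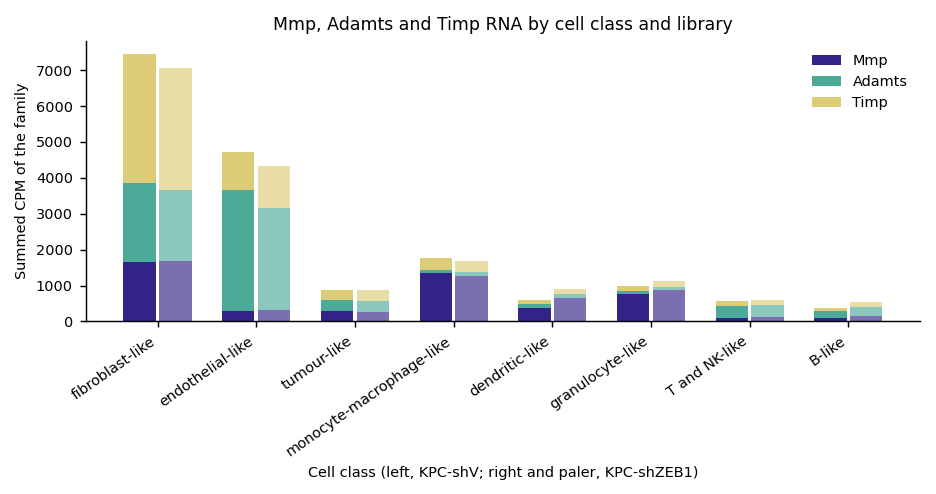
Summed CPM (y axis) of the Mmp, Adamts and Timp genes, stacked, in 8 cell classes (x axis), with the KPC-shV-labelled library on the left of each pair and the KPC-shZEB1-labelled library, paler, on the right. Timp genes are the largest part in fibroblast-like cells, Adamts genes in endothelial-like cells and Mmp genes in monocyte-macrophage-like and granulocyte-like cells.

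Fibroblast-like cells (371 in the KPC-shV-labelled library and 392 in the KPC-shZEB1-labelled library, 1 cluster) held the most RNA of these genes, and their 2 most abundant inhibitors went opposite ways between the libraries. Below, values are given for the KPC-shV-labelled library first, intervals are 95% for counting error only, and a ratio is the KPC-shZEB1-labelled library over the KPC-shV-labelled library. A gene is called higher or lower where that ratio passes 1.5-fold and both libraries together hold at least 100 UMIs in the class. Timp3 (chr10:86300372-86349506), the matrix-bound inhibitor, stood at 1257 CPM (1236–1278) and 677 CPM (662–693), a ratio of 0.539 (0.524–0.555). UMIs of Timp3 were found in 80.9% and 67.6% of these cells, and, with every cell thinned to 1000 UMIs, in 38.3% and 26.8%, beside 9.38% and 6.85% of the shallower B-like cells unthinned. Timp1 (chrX:20870166-20874735), a soluble inhibitor, stood at 1792 CPM (1767–1818) and 2236 CPM (2208–2264), a ratio of 1.25 (1.22–1.27) that did not pass the fold. Timp2, which also takes part in the activation of Mmp2, stood at 531 and 482 CPM. Timp2 overlaps Cep295nl on its own strand, so the split of UMIs between Timp2 and Cep295nl is uncertain. Timp3 and Timp1 each lie inside a gene of the other strand (Syn3 and Syn1). That overlap bears on their UMIs only if counting ignored the strand, which was not given in the sources used here.

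Of 30 genes compared in fibroblast-like cells, none was called higher (4.61% of all genes with enough UMIs were) and 6 were called lower (3.68% of all). The 6 were Timp3, Adamts4, Adamts6, Mmp10, Mmp11 and Mmp16. Adamts4, an aggrecanase, stood at 289 CPM (279–299) and 191 CPM (183–199), a ratio of 0.660 (0.625–0.698). Adamts6, linked to fibrillin microfibrils, stood at 148 CPM (141–155) and 87.7 CPM (82.3–93.5), a ratio of 0.593 (0.547–0.643). Both differences exceed the counting intervals. The Adamts4 call was lost under 3 alternatives, with ratios up to 0.741, and the share of cells with a UMI of Adamts4 was 76.8% and 76.5%. Mmp11 (stromelysin 3), a stromal enzyme of many carcinomas, stood at 20.9 CPM (18.3–23.9) and in the other library within 10.9–15.3 CPM, a ratio of 0.619 (0.498–0.767). Mmp16, a membrane-type Mmp, stood at 5.97 and 3.40 CPM, a ratio of 0.570 (0.370–0.866). Mmp10 stood at 20.6 CPM (18.0–23.5) and 5.98 CPM (4.61–7.62), but 5 cells held 67.9% and 69.2% of its UMIs, and 8.09% and 4.59% of cells had any.

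The enzymes that make up most of the fibroblast signal differed little. Mmp2 (chr8:92827291-92853420), gelatinase A, stood at 722 CPM (706–738) and 626 CPM (611–641), and its membrane activator Mmp14 at 307 CPM (296–317) and 334 CPM (323–345). Nearly every fibroblast-like cell had both, with Mmp2 in 97.3% and 97.7% and Mmp14 in 96.2% and 96.4%. Mmp3 stood at 243 CPM (234–253) and 339 CPM (328–349.9), a ratio of 1.39 (1.33–1.47) just under the fold, with 26.4% and 25.5% of its UMIs in 5 cells. Mmp23 stood at 162 and 171 CPM and Mmp19 at 94.0 and 104 CPM. Among the procollagen N-proteinases, Adamts2 (chr11:50602084-50807573) stood at 406 CPM (394–418) and 414 CPM (402–426) and was found in 95.7% and 97.7% of cells, while Adamts3 stood at 63.2 and 44.0 CPM, a ratio of 0.695 (0.618–0.783). Of the enzymes that cut proteoglycans, only Adamts4 was called. Adamts5 stood at 359 and 380.1 CPM, Adamts1 at 341 and 302 CPM, Adamts9 at 275 and 277 CPM, Adamts12 at 186 and 156 CPM and Adamts15 at 61.2 and 55.9 CPM. Adamts10, which binds fibrillin, stood at 25.7 and 27.0 CPM. Mmp12 and Mmp9, at 24.2 and 36.1 CPM and at 22.2 and 19.8 CPM, were close to their levels in B-like cells or other classes that do not lead for them. The monocyte-macrophage markers in fibroblast-like cells summed to 322 and 753 CPM, and all 11 were higher in the KPC-shZEB1-labelled library.

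Timp3 was lower in the KPC-shZEB1-labelled library in most other classes too, at levels near those of B-like cells. It stood at 28.3 and 19.3 CPM in tumour-like cells, 23.5 and 16.8 CPM in monocyte-macrophage-like cells, 29.0 and 21.6 CPM in granulocyte-like cells and 25.1 and 19.0 CPM in B-like cells. None of these ratios, from 0.683 to 0.758, passed the fold. T and NK-like cells, at 18.1 and 19.8 CPM, had a ratio of 1.09 (0.798–1.52). In the unnamed Prg4 cluster Timp3 was also lower, within the fold, but at a level above that of B-like cells. That cluster held 9.13% and 4.70% of all Timp3 UMIs, against 0.144% and 0.675% in B-like cells. These shares also follow the size of each group. The cluster had 14366440 and 6117732 UMIs in all, and B-like cells 1154720 and 4467821. Endothelial-like cells, which also carry Timp3 at a high level, went the other way, with 858 CPM (824–893) and 995 CPM (949–1042), a ratio of 1.16 (1.09–1.23). The difference between fibroblast-like and endothelial-like cells was not tested.

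Endothelial-like cells (146 and 80 cells, 1 cluster) carried mainly the versican-cutting Adamts enzymes. Adamts9 (chr6:92772699-92943492) was their leading gene, at 2160.4 CPM (2106–2216) and 1751 CPM (1690.1–1813), a ratio of 0.810 (0.776–0.846), and was found in 93.8% and 92.5% of the cells. Adamts1 (chr16:85793827-85803113), known to restrain vessel growth, stood at 733 CPM (702–766) and 570.0 CPM (536–606), a ratio of 0.777 (0.721–0.839), and Adamts4 at 293 and 288 CPM. Adamts7 stood at 21.2 and 27.4 CPM and Mmp14 at 142 CPM (128–156) and 180.3 CPM (161–201). Of 14 genes compared, 1 was called higher (5.57% of all genes) and 2 lower (4.47% of all). Mmp15, a membrane-type Mmp that was highest here, stood at 28.0 CPM (22.1–34.9) and 46.3 CPM (36.9–57.4), a ratio of 1.66 that fell inside the fold under 3 alternatives, at 1.43 at the least. Adamts5 stood at 76.0 and 43.5 CPM, a ratio of 0.573 (0.436–0.746), with 5 cells holding 36.8% and 70.5% of its UMIs. Mmp9 stood at 31.5 and 16.7 CPM, a ratio of 0.531 (0.339–0.812), in a class where the 8 granulocyte markers summed to 3234 and 1241 CPM, and its ratio was 1.03 as a mean over cells.

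The Rgs5 cluster, with 14 and 10 cells, held 6 of 6 markers of mural cells, the contractile cells around vessels, but too few cells to be named. Adamts genes led in it too. Adamts9 stood at 1652 and 1054 CPM, Adamts4 at 1017 and 199.7 CPM, Adamts12 at 547 and 444 CPM and Adamts1 at 498 and 233 CPM. Mmp10 was at 1017 CPM in the KPC-shV-labelled library with all of its UMIs in 7.14% of the cells, which is 1 cell, and at 0 in the KPC-shZEB1-labelled library. Mmp9 was at 619 CPM and 0, with 99.4% of the UMIs in 5 cells. With so few cells no ratio is drawn from this cluster.

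Monocyte-macrophage-like cells (1611 and 2496 cells) carried 4 enzymes and 1 inhibitor above 100 CPM in a library. Mmp12 (chr9:7344381-7369499) stood at 854 CPM (842–865) and 744 CPM (736–753), a ratio of 0.872 (0.856–0.888). Mmp13 stood at 148 CPM (143–153) and 104 CPM (100.4–107), a ratio of 0.698 (0.667–0.731). Mmp19 stood at 114 CPM (109–118) and 157 CPM (153–161), a ratio of 1.38 (1.32–1.45), and Mmp14 at 111 CPM (107–115) and 142 CPM (139–146), a ratio of 1.28 (1.23–1.35). These 4 enzymes thus differed in direction, and none passed the fold. Timp2 stood at 235 and 224 CPM. Mmp9 stood at 33.3 and 46.7 CPM and Mmp2 at 28.4 and 37.8 CPM. Of 23 genes compared, 1 was called higher (6.04% of all genes) and 1 lower (1.18% of all). The lower was Mmp8, at 29.1 CPM (26.9–31.4) and 13.6 CPM (12.4–14.8), a ratio of 0.466 (0.415–0.523). Of its UMIs, 31.7% and 23.4% were in 5 cells. The 8 granulocyte markers summed to 7819 and 6207 CPM in this class. Over both libraries Cxcl2 alone stood at 5809 CPM, S100a8 at 218 CPM and S100a9 at 384 CPM. The higher was Adamts14, at 1.19 and 1.87 CPM, whose interval (1.00–2.52) reaches 1. Its call was lost as a mean over cells and with the CPM of B-like cells subtracted, with a ratio down to 1.01.

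The class held 2 clusters, and the Mmp12-led cluster had 59.5% of the cells of the class in both libraries. It carried Mmp12 at 1181 and 1038 CPM, against 179 and 147 CPM in the Ccl8-led cluster, which has Lyve1 and Folr2, known from resident tissue macrophages, among its leading genes. Timp2 had the opposite placement, with 133 and 142 CPM in the Mmp12-led cluster and 444 and 391 CPM in the Ccl8-led cluster. Mmp13 stood at 165 and 127 CPM in the first and at 115 and 55.3 CPM in the second, ratios of 0.774 and 0.481. Mmp19 stood at 141 and 186 CPM and at 57.3 and 97.0 CPM. Mmp8 stood at 41.4 and 19.3 CPM in the Mmp12-led cluster and at 3.79 and 1.98 CPM (29 and 25 UMIs) in the Ccl8-led cluster. The granulocyte marker S100a8 stood at 353 and 147 CPM in the first and at 319 and 131 CPM in the second. In both clusters Mmp13 was lower and Mmp19 higher in the KPC-shZEB1-labelled library. The genes described here were kept out of the clustering.

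Dendritic-like cells (104 and 333 cells) were the leading class of Mmp25, a membrane-anchored Mmp also known as leukolysin, which stood at 116 CPM (99.7–134) and 158 CPM (147–169), a ratio of 1.36 (1.16–1.61). Within the class it stood at 289 and 382 CPM in the Strip2 cluster and at 52.6 and 83.3 CPM in the Cd209a cluster. Mmp12 was placed the other way, at 24.3 and 98.1 CPM in the Strip2 cluster and 226 and 441 CPM in the Cd209a cluster. Of 10 genes compared, 3 were called higher (6.26% of all genes) and none lower (3.37% of all). The 3 were Mmp12, with intervals of 151–194 and 339–372 CPM, Mmp19, at 17.6 and 44.2 CPM, and Mmp14, at 23.5 and 36.1 CPM, with ratios of 2.07 (1.82–2.36), 2.51 (1.68–3.89) and 1.54 (1.07–2.26). The Mmp14 call was lost under 4 alternatives. The KPC-shV-labelled library held 66.2% of its dendritic-like Mmp12 UMIs in 5 cells, against 20.8% in the KPC-shZEB1-labelled library. Mmp12 and Mmp19 were highest in monocyte-macrophage-like cells and Mmp14 in fibroblast-like cells. The 11 monocyte-macrophage markers summed to 685 and 1274 CPM in dendritic-like cells.

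Granulocyte-like cells (6863 and 4344 cells) were the leading class of Mmp9 (chr2:164940780-164955850), gelatinase B, and Mmp8, both of which neutrophils store in granules. Mmp9 stood at 513 CPM (503–522) and 608 CPM (595–621), a ratio of 1.19 (1.15–1.22), yet within each of the 6 clusters of the class its ratio was under 1. It stood at 1003 and 863 CPM in the Abca13 cluster, 557 and 498 CPM in the Rdh12 cluster, 542 and 538 CPM in the Cstdc4 cluster, 450 and 414 CPM in the Ifit1 cluster and 188 CPM with a ratio of 0.915 in the Prok2 cluster. The ratios ran from 0.791 to 0.993 over all 6. Their intervals stayed below 1 in the Abca13 cluster (0.827–0.897) and the Rdh12 cluster (0.832–0.960), and reached 1.00 or more in the other 4. The Abca13 cluster, where Mmp9 was highest, made up 18.2% of the class in the KPC-shV-labelled library and 43.1% in the KPC-shZEB1-labelled library, and the Prok2 cluster, where it was lowest, 33.2% and 15.6%. With clusters weighted alike in both libraries, a setting chosen after the values were seen, the Mmp9 ratio was 0.896.

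Mmp8 was called lower in granulocyte-like cells, at 67.0 CPM (63.7–70.5) and 37.9 CPM (34.7–41.4), a ratio of 0.566 (0.511–0.626). It was lower in 4 of the 5 clusters with enough UMIs, with ratios from 0.420 to 1.06, and its ratio was 0.750 with clusters weighted alike, inside the fold. Mmp25 stood at 60.6 and 52.3 CPM. Of 21 genes compared, 4 were called higher, a share near the 19.6% of all genes, and 1 lower (2.46% of all). The 4 called higher were Mmp14, at 26.8 and 44.8 CPM, Adamts6, at 10.6 and 20.7 CPM, Mmp3, at 4.77 and 8.10 CPM, and Mmp23, at 2.89 and 5.35 CPM. With the CPM of B-like cells subtracted, the ratios of Mmp3 and Mmp23 turned to 0.509 and 0.193. After this subtraction the KPC-shZEB1-labelled level of both was negative and was set to a floor of 3 counts, so these ratios reflect the floor. The Mmp14 call was also lost with that subtraction and with clusters weighted alike, with a ratio down to 1.33. Adamts6 got no ratio under that subtraction, since its level was below that of B-like cells in both libraries. All 4 were led by other classes, and Mmp23 was present in 0.918% and 1.66% of granulocyte-like cells. Mmp14 was highest in the Abca13 cluster, at 53.5 and 60.9 CPM, against 23.0 and 33.0 CPM in the Prok2 cluster. The Abca13 cluster made up 18.2% and 43.1% of the class. The 7 fibroblast markers in granulocyte-like cells summed to 559 and 751 CPM, and the 11 monocyte-macrophage markers to 572 and 1217 CPM. Timp2 stood at 80.9 and 72.5 CPM and Timp1 at 55.2 and 76.8 CPM.

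**Figure D4:**
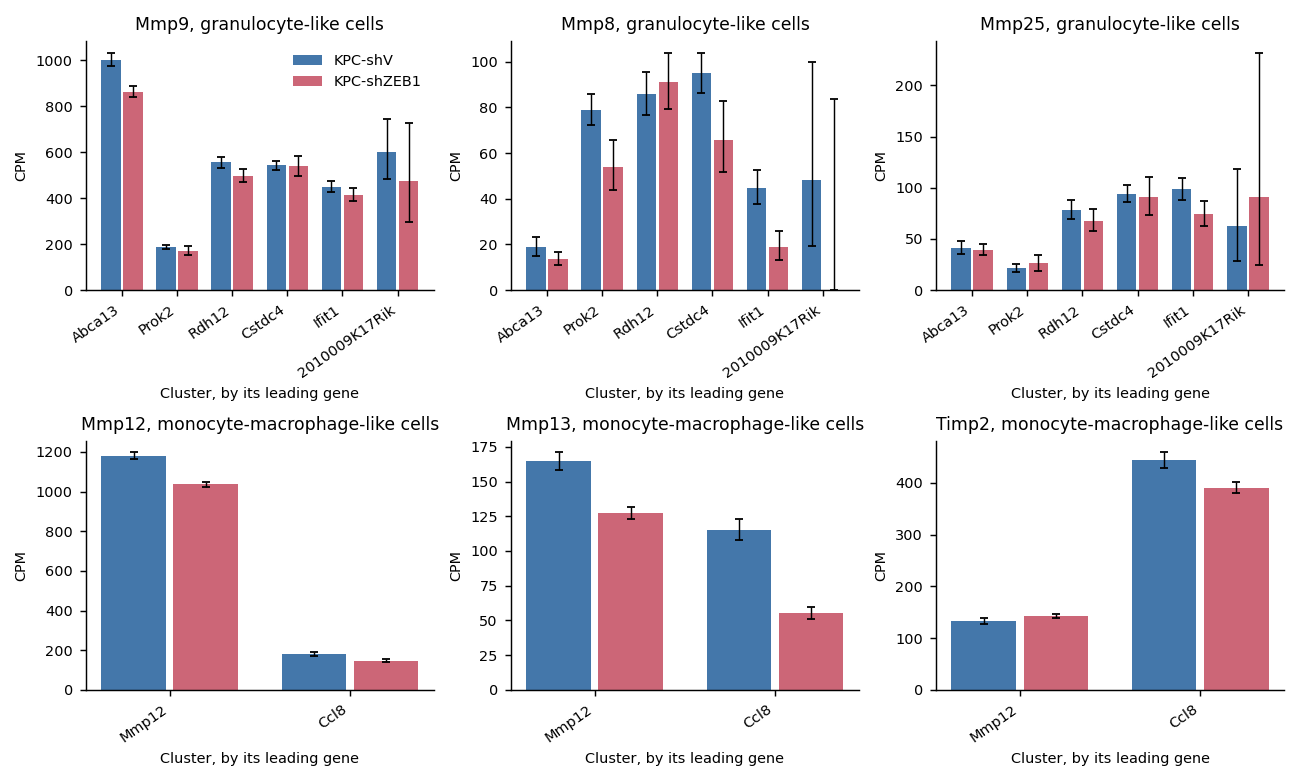
CPM with exact Poisson 95% intervals (y axis) of Mmp9, Mmp8 and Mmp25 in the 6 granulocyte-like clusters and of Mmp12, Mmp13 and Timp2 in the 2 monocyte-macrophage-like clusters (x axis, named by leading gene), blue for the KPC-shV-labelled library and red for the KPC-shZEB1-labelled library. The red Mmp9 value is below the blue in each granulocyte-like cluster, with ratio intervals that reach 1.00 or more in 4 of the 6, and Mmp12 and Timp2 are high in opposite monocyte-macrophage-like clusters.

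Tumour-like cells (978 and 986 cells) carried these genes at low levels, with Adamts1 the highest. It stood at 192 CPM (186–198) and 204 CPM (198–210.5), Timp2 at 159.8 and 169.5 CPM, Timp1 at 94.7 and 102 CPM and Mmp14 at 76.4 CPM (72.7–80.4) and 89.2 CPM (85.2–93.4). Adamts6 stood at 61.1 and 40.9 CPM, a ratio of 0.669 (0.612–0.731). Mmp7, a secreted enzyme of epithelial cells, stood at 15.9 and 19.2 CPM. Of 28 genes compared, none was called higher (6.54% of all genes) and 2 were called lower (2.29% of all). Mmp13 stood at 43.0 CPM (40.2–46.0) and 19.7 CPM (17.9–21.7), a ratio of 0.458 (0.406–0.516), and Mmp8 at 4.05 and 1.56 CPM, a ratio of 0.385 (0.247–0.586). The Mmp13 call was lost at resolution 0.5, with each library clustered alone and with the Prg4 and Ralyl clusters counted in, with a ratio of up to 0.920. The granulocyte markers in tumour-like cells summed to 2869 and 1678 CPM. After thinning to 1000 UMIs, Mmp13 was found in 3.99% and 1.62% of tumour-like cells.

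The class held a Tmem45b cluster and a smaller, shallower S100a14 cluster. Mmp13 was lower in the KPC-shZEB1-labelled library in both, with 39.3 and 17.7 CPM in the first and 112 and 54.7 CPM in the second. Mmp12, at 33.1 and 33.4 CPM in the Tmem45b cluster, stood at 499 and 197 CPM in the S100a14 cluster, where the macrophage marker C1qa stood at 753 and 1005 CPM against 91.1 and 254 CPM in the Tmem45b cluster. Timp1 stood at 85.0 and 98.4 CPM in the Tmem45b cluster and at 278 and 169 CPM in the S100a14 cluster. The Dcdc2a cluster (7 and 27 cells), with 9 of 10 tumour markers but too few cells to be named, held Mmp7 at 1021 CPM (883–1175) and 683 CPM (616–754) in 100.0% and 70.4% of its cells.

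The Prg4 cluster (494 and 202 cells) was not named, since the first fibroblast marker, Col1a1, did not pass the rule. Its Krt8 and Epcam, markers of the tumour-like class, stood at 671 and 23.4 CPM against 1941 and 578 CPM there. Col1a1 stood at 291 CPM, against 11033 CPM in fibroblast-like cells, while 5 of 7 fibroblast markers were detected. Cdkn2a, added after values were seen, stood at 370.3 CPM, against 269 CPM in tumour-like and 28.7 CPM in fibroblast-like cells. The identity of this cluster was not tested. Its inhibitor Timp1 stood at 251 CPM (243–259.8) and 371 CPM (356–387), a ratio of 1.48 (1.40–1.56) just under the fold, and Timp2 at 221 and 271 CPM. Adamts1 stood at 198 and 170.3 CPM, Adamts6 at 140.3 and 117 CPM, Mmp14 at 93.9 and 117 CPM, Adamts5 at 94.5 and 67.8 CPM and Adamts4 at 68.4 and 70.8 CPM. Of 21 genes compared, 7 were called higher (4.89% of all genes) and none lower (2.91% of all). Mmp13 stood at 26.0 CPM (23.5–28.8) and 77.8 CPM (71.0–85.1), a ratio of 2.99 (2.60–3.43), with 37.7% and 67.6% of its UMIs in 5 cells. Mmp3 stood at 38.1 and 88.3 CPM, a ratio of 2.31 (2.05–2.61), with 38.0% and 82.6% of its UMIs in 5 cells, and without those cells its ratio was 0.662. Mmp10 stood at 5.57 and 10.1 CPM with 78.8% and 98.4% in 5 cells, and without them its ratio was 0.408. The other 4 were Mmp12 (20.7 and 40.9 CPM), Mmp19 (30.7 and 47.7 CPM), Mmp25 (4.87 and 10.1 CPM) and Adamts2 (6.13 and 10.5 CPM), of which Mmp19 and Adamts2 were inside the fold without those 5 cells and Mmp12 turned to 0.0569 with B-like CPM subtracted. That Mmp12 ratio reflects a floor of 3 counts, to which the negative KPC-shZEB1-labelled level was raised. The monocyte-macrophage markers in this cluster summed to 332 and 752 CPM. The Ralyl cluster had 9 cells in the KPC-shV-labelled library and 231 in the KPC-shZEB1-labelled library, so no ratio is given. In the latter, Timp2 stood at 300.1 CPM, Timp1 at 281 CPM and Timp3 at 107 CPM.

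Among lymphoid and plasmacytoid cells, Adamts6 (chr13:104287835-104496695) was the main gene of the set. It stood at 284 and 404 CPM in plasmacytoid dendritic-like cells (15 and 40 cells), 235 CPM (218–253) and 200.5 CPM (191–210.2) in T and NK-like cells (426 and 1388 cells) and 135 CPM (115–158) and 173 CPM (161–186) in B-like cells (288 and 1227 cells). It was found in 12 of the 15 and 31 of the 40 plasmacytoid dendritic-like cells. Within the T and NK-like class it was highest in the Gm156 cluster, led by Tnfrsf4, Ctla4 and Pdcd1, at 415 and 319 CPM, against 53.4 and 90.2 CPM in the Klra7 cluster, led by NK receptor genes. Adamts14, a procollagen N-proteinase, had the opposite placement. It stood at 26.1 and 28.1 CPM in the class, at 55.6 and 64.3 CPM in the Klra7 cluster, at 18.5 and 17.0 CPM in the Gm156 cluster and at 0 and 1.60 CPM in the Lef1 cluster. Adamts14 was led by this class although its known substrate is fibrillar procollagen, and in fibroblast-like cells it stood at 7.17 and 8.92 CPM. Adamts10 stood at 23.3 and 24.5 CPM.

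In T and NK-like cells 3 of 13 genes were called higher (5.31% of all genes) and none lower (1.55% of all). They were Mmp12, at 25.8 and 40.0 CPM, Mmp14, at 10.4 and 19.2 CPM, and Mmp19, at 6.27 and 10.5 CPM, the 3 genes also called higher in dendritic-like cells. With B-like CPM subtracted, the ratios of Mmp12 and Mmp14 turned to 0.0259 and 0.504. The KPC-shZEB1-labelled Mmp12 level, 40.0 CPM, was below the 49.9 CPM of B-like cells. The negative difference was set to a floor of 3 counts, so the ratio of 0.0259 reflects that floor and not a measured level. In B-like cells 3 of 5 genes were called higher (7.12% of all genes) and none lower (1.45% of all), namely Mmp12, at 12.1 and 49.9 CPM, Timp2, at 26.0 and 47.5 CPM, and Timp1, at 45.9 and 77.4 CPM. Both Timp calls were lost without doublet removal. The monocyte-macrophage markers summed to 589 and 985 CPM in T and NK-like cells and were all higher in B-like cells of the KPC-shZEB1-labelled library, by 2.75 times in sum. The fibroblast markers in B-like cells summed to 482 and 656 CPM.

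Across classes, the calls of the KPC-shZEB1-labelled library ran lower in fibroblast-like cells and higher in dendritic-like and lymphoid classes and in the Prg4 cluster, while in granulocyte-like cells the share called higher was near that of all genes. With B-like CPM subtracted, T and NK-like cells had 0 higher and 7 lower, granulocyte-like cells 2 higher and 10 lower, dendritic-like cells 2 higher and 2 lower, the Prg4 cluster 6 higher and 4 lower and fibroblast-like cells 0 higher and 7 lower. Levels left under 3 counts by the subtraction were set to 3 counts, and some of these lower calls rest on that floor. The median log2 ratio of the genes compared was -0.13 in fibroblast-like cells, 0.06 in tumour-like cells, 0.25 in monocyte-macrophage-like cells and 0.33 in granulocyte-like cells, beside -0.03, 0.05, 0.04 and 0.25 over all genes with enough UMIs. Among the 33 counted genes, those called in their leading class were Timp3, Mmp10, Mmp11 and Mmp16 in fibroblast-like cells, Mmp15 in endothelial-like cells and Mmp8 in granulocyte-like cells.

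**Figure D5:**
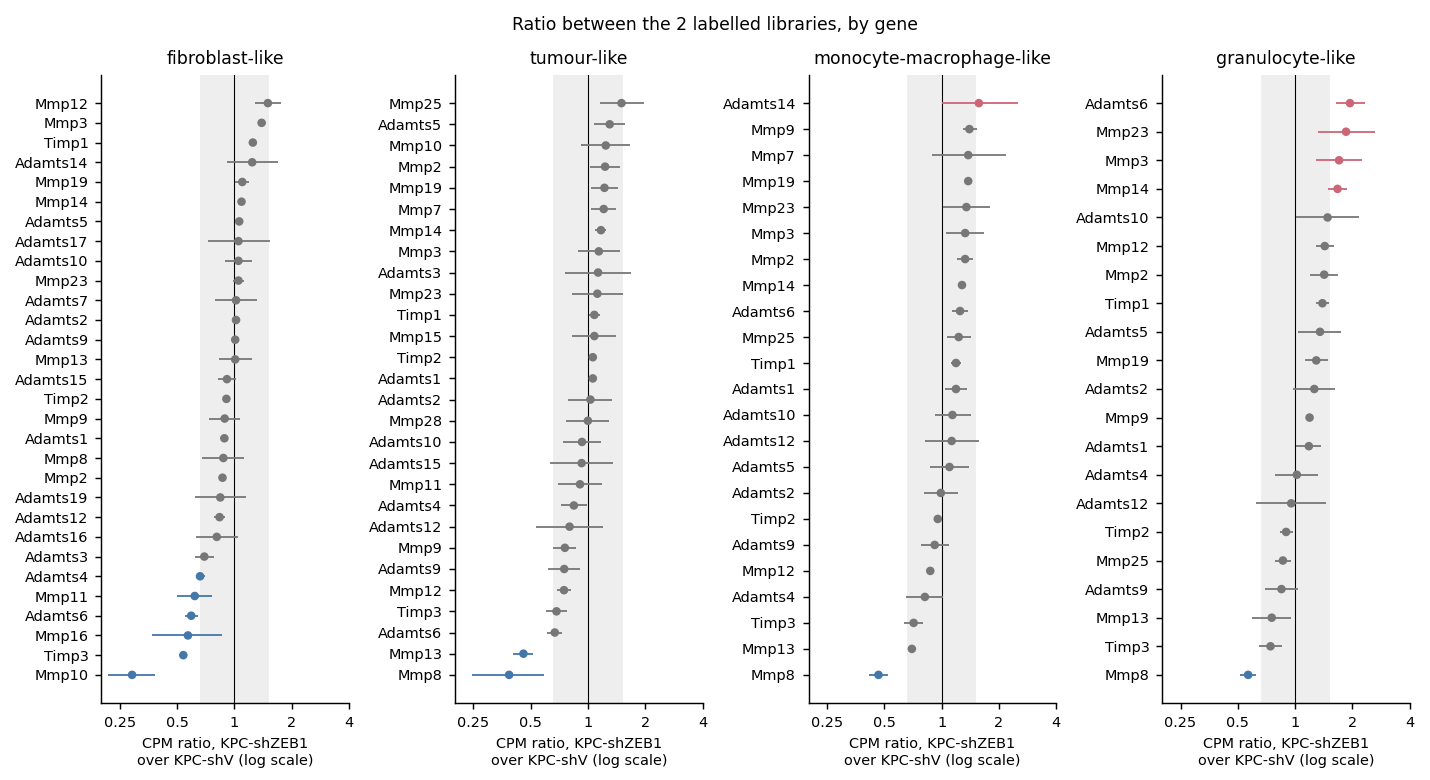
CPM ratio of the KPC-shZEB1-labelled library over the KPC-shV-labelled library with its exact 95% counting interval (x axis, log scale) for each gene with at least 100 UMIs over both libraries (y axis, in order of ratio), in 4 classes. The grey band spans 1.5-fold in either direction, red points lie above it and blue points below it, and Mmp10 in fibroblast-like cells has the lowest ratio, 0.290.

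The other genes of the pathway were a list of 50 activators, inhibitors, ADAM proteases, Adamts-like proteins, receptors, substrates and other matrix proteases. In fibroblast-like cells 44 of them had enough UMIs, of which 3 were called higher and 3 lower (4.61% and 3.68% of all genes). Serpinb2, an inhibitor of the plasminogen activators, stood at 65.9 and 156 CPM, a ratio of 2.36 (2.16–2.58). The other 2 higher, Cd74 (258 and 658 CPM), a receptor for Timp1, and the cathepsin Ctss (70.1 and 146 CPM), are also genes of macrophages. The 3 lower were Thsd4, an Adamts-like protein of microfibrils (59.7 and 25.2 CPM), the substrate elastin Eln (344 and 198 CPM) and the procollagen protease Tll1 (10.8 and 6.99 CPM). Adam12 (452 and 481 CPM), fibronectin Fn1 (3304 and 3032 CPM), decorin Dcn (2801 and 2666 CPM) and versican Vcan (613 and 652 CPM) were within the fold. In tumour-like cells 41 had enough UMIs, with 4 called higher and 1 lower (6.54% and 2.29% of all genes). The lower was Tll1, at 10.0 and 2.29 CPM, a ratio of 0.229 (0.163–0.316), and it was also lower in the Prg4 cluster, at 43.2 and 13.6 CPM. In monocyte-macrophage-like cells 41 had enough UMIs, with 7 called higher and 1 lower (6.04% and 1.18% of all genes). They included the collagen-cutting proteases Ctsk (8.57 and 19.8 CPM) and Fap (13.1 and 26.1 CPM) among the higher and Vcan (136 and 74.3 CPM), a substrate of Adamts1 and Adamts9, as the lower. In endothelial-like cells 4 were called higher and 5 lower of 31 (5.57% and 4.47% of all genes), among the latter Adam12 (219 and 138 CPM), Thsd4 (47.3 and 22.9 CPM) and the docking receptor Cd44 (310.1 and 189 CPM). In granulocyte-like cells 6 were called higher and 1 lower of 41 (19.6% and 2.46% of all genes), the lower being Bsg (376 and 249 CPM), an inducer of Mmp genes. The urokinase receptor Plaur (1396 and 1310.1 CPM) was within the fold there. Dendritic-like cells had 2 higher and 0 lower of 27 (6.26% and 3.37% of all genes), and T and NK-like cells 3 and 1 of 30 (5.31% and 1.55%). B-like cells had 3 and 1 of 23 (7.12% and 1.45% of all genes), and the Prg4 cluster 4 and 2 of 35 (4.89% and 2.91%).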

How the data were processed

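Per the labels and the file headers, the authors prepared 10x Chromium 3′ v3.1 libraries from dissociated tumours, 1 per group, and made counts with Cell Ranger 7.0.1 on the mm10 build. The deposited values are raw UMI counts per gene and barcode in filtered matrices. Whether intronic reads entered the counts was not given in the sources used here. Cells were kept from 500 genes and 1000 UMIs upwards, below 60000 UMIs and with up to 15% mitochondrial UMIs, which left 11713 of 12594 and 12447 of 13271 barcodes. Cells with a Scrublet score above 0.2 (scanpy 1.11.5) were removed. Both libraries were clustered together, without alignment, on 30 principal components of 3000 variable genes with 20 neighbours (Leiden, resolution 1, leidenalg 0.10.2), with the 45 genes and the 50 pathway genes kept out of the variable genes. A cluster was named from fixed markers where at least 3 were detected, each in at least 10% of its cells and at 3 times the level of the median cluster, its first marker among them, with at least 50 cells and no other class leading its 10 top genes or showing 80% of its markers. This naming rule was set after the clusters were seen.

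UMIs were summed by class and library and divided by the class total to give CPM, with exact Poisson 95% intervals. Ratios have exact intervals conditional on the summed counts, and shares of cells exact Clopper-Pearson intervals. These intervals reflect counting error alone, not the spread between mice, and with 1 library per group there is no test and no p-value. A ratio was called past 1.5-fold with at least 100 UMIs over both libraries. For this call a level under 3 counts, or a negative level after subtraction, was set to 3 counts. A gene was named with its level in a class that held at least 100 of its UMIs where it was highest or had at least 20 CPM. The depth was 130941086 and 143461224 UMIs. The steps were tested on simulated data, and 12 planned and 3 later alternatives were run. The genes and lists were chosen with earlier results of these data known.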

Additional observations from a re-analysis of the deposited data

Results flagged for a closer look

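In 3 genes the ratio between the libraries (KPC-shZEB1 over KPC-shV) was past 1.5-fold in opposite directions in different cells, and in none was the difference tested. Adamts6 had a ratio of 0.593 in fibroblast-like cells and 1.94 in granulocyte-like cells, where it stood at 10.6 and 20.7 CPM against 148 and 87.7 CPM in fibroblast-like cells. The granulocyte-like level was below that of B-like cells in both libraries, so subtraction of B-like CPM gave no ratio there. In fibroblast-like cells the subtraction gave 0.0213, a ratio that reflects a floor of 3 counts. Mmp10 had a ratio of 0.290 in fibroblast-like cells and 1.82 in the Prg4 cluster, where 5 cells held 78.8% and 98.4% of its UMIs, and without those cells the latter ratio was 0.408, the same direction as in fibroblast-like cells. Mmp13 had a ratio of 0.458 in tumour-like cells and 2.99 in the Prg4 cluster, and without the 5 cells with most of its UMIs the latter was 1.58. In monocyte-macrophage-like cells, which lead for Mmp13, its ratio was 0.698.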

How the results depend on the processing

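Of 34 calls by gene and class, 22 higher and 12 lower, 15 kept their call at 1.5-fold under each of the 5 to 11 alternatives that gave them a ratio (7 higher, 8 lower), and 5 higher and 3 lower of these also passed a fold of 2. The 8 lower were Timp3, Adamts6, Mmp10, Mmp11 and Mmp16 in fibroblast-like cells, Adamts5 in endothelial-like cells and Mmp8 in monocyte-macrophage-like and tumour-like cells, of which Mmp10 and both Mmp8 calls passed a fold of 2. Direction turned for 7. With the CPM of B-like cells subtracted, ratios were 0.0569 for Mmp12 in the Prg4 cluster, 0.0259 for Mmp12 and 0.504 for Mmp14 in T and NK-like cells, and 0.193 for Mmp23 and 0.509 for Mmp3 in granulocyte-like cells. Of these, all but that of Mmp14 rest on a KPC-shZEB1-labelled level that was negative after the subtraction and was set to a floor of 3 counts. They reflect that floor and are no measured reversal. B-like cells hold Adamts6 at a level of their own. In fibroblast-like cells the Adamts6 call was kept under this subtraction with a ratio of 0.0213. That ratio also reflects the floor, since the KPC-shZEB1-labelled level was below that of B-like cells. The Mmp25 ratio of 31.4 in the Prg4 cluster reflects the floor as well, there for the KPC-shV-labelled level. For these 2 kept calls the subtraction is no measured check. Without the 5 cells with the most UMIs, ratios were 0.662 for Mmp3 and 0.408 for Mmp10 in the Prg4 cluster. Tumour-like Mmp13 lost its call at resolution 0.5, with each library clustered alone and with the Prg4 and Ralyl clusters counted in, where its ratio reached 0.920.

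Counts of called genes moved by over 1.5 times as follows. With B-like CPM subtracted, lower calls were 5 in endothelial-like, 12 in tumour-like, 8 in monocyte-macrophage-like, 2 in dendritic-like, 10 in granulocyte-like, 7 in T and NK-like cells and 4 in the Prg4 cluster, and higher calls 1 in tumour-like, 2 in monocyte-macrophage-like, 2 in granulocyte-like and 0 in T and NK-like cells. From 30 UMIs, higher calls were 4 in endothelial-like, 6 in dendritic-like, 8 in granulocyte-like, 7 in T and NK-like and 8 in B-like cells, and lower calls 2 in monocyte-macrophage-like, 1 in dendritic-like, 2 in granulocyte-like, 1 in B-like cells and 3 in the Prg4 cluster. At a fold of 2, lower calls were 1 in fibroblast-like, 0 in endothelial-like and 0 in granulocyte-like cells, and higher calls 0 in endothelial-like, monocyte-macrophage-like, granulocyte-like and T and NK-like cells, 1 in B-like cells and 3 in the Prg4 cluster. As the mean over cells, higher calls were 3 in endothelial-like and 4 in tumour-like cells, and lower calls 1 in endothelial-like and 4 in tumour-like cells and 1 in the Prg4 cluster. Without the 5 cells, higher calls were 0 in endothelial-like, 1 in tumour-like, 2 in monocyte-macrophage-like and 5 in dendritic-like cells and 3 in the Prg4 cluster, and lower calls 4 in tumour-like cells and 4 in the Prg4 cluster. With cells from 200 genes and 500 UMIs, endothelial-like cells had 2 higher and tumour-like cells 1 higher and 1 lower. With no upper limit on UMIs, fibroblast-like cells had 1 higher, endothelial-like 2 higher, tumour-like 1 higher and 5 lower, monocyte-macrophage-like 0 higher and T and NK-like 1 lower. Without doublet removal, endothelial-like cells had 3 higher, tumour-like 1 and B-like 1. At resolution 0.5, tumour-like cells had 2 higher and 4 lower. At resolution 2, fibroblast-like and tumour-like cells had 1 higher each and T and NK-like cells 1 lower. With each library clustered alone, tumour-like cells had 7 higher, monocyte-macrophage-like 0 higher and dendritic-like 1 lower. Relative to the median ratio of the class, fibroblast-like cells had 1 higher. With the Prg4 and Ralyl clusters counted in, tumour-like cells had 2 higher and 4 lower, and with clusters weighted alike granulocyte-like cells had 0 lower. Levels left under 3 counts by the B-like subtraction were set to 3 counts, and some of the lower calls under it rest on that floor. The causes of these moves were not tested.

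No library was left out, as a group has only 1, and levels of a few UMIs are limited by depth. The settings on the Prg4 and Ralyl clusters, the 5 cells and the cluster weights were chosen after the data were seen. No paired analysis was possible because each group is 1 library and no test was made.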
